A study of Homo sapiens with 6 samples.

Results

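The insulin-like growth factor (IGF) axis was examined in 10 genes, namely the secreted binding proteins IGFBP2 to IGFBP7, the receptors IGF1R and IGF2R, and the receptor substrates IRS1 and IRS2. They were found by matching the Ensembl identifier of each row to its symbol, which gave 1 row for each of the 10 among 62703 genes. Bulk RNA sequencing was done on MDA-MB-231 cells, an established line from a human breast tumour of the triple-negative kind. The cells carried hairpin RNA against RNF20 (shRNF20, 3 libraries) or a control hairpin (shControl, 3 libraries), and no agent other than the hairpins is named in the labels for either group. RNF20 is the E3 ligase that, with RNF40, places ubiquitin on histone H2B along transcribed genes. The number of hairpins, and the use of pooled or clonal cells, are not given. Nor is it stated that each library came from its own culture, so the p-values reflect variation among these libraries only, and that variation may be technical.

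IGF1 and IGF2 are secreted peptides that activate IGF1R, a receptor tyrosine kinase, and the signal passes through the docking proteins IRS1 and IRS2 to phosphoinositide 3-kinase and AKT. IGF2R, which is also the cation-independent mannose 6-phosphate receptor, has no kinase domain and carries IGF2 to lysosomes. Binding proteins of the IGFBP family hold the ligands outside the cell, and proteases such as PAPPA release them again. In breast cancer cells the axis is known for promoting growth and survival, and IGFBPs also act on matrix and cell surface without their ligands.

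The promoters of the 4 genes whose mRNA differed in the test described below are shown because IGFBP3, IGFBP4 and IGFBP6 moved one way and IRS2 the other. Each line gives the 250 bases before the transcription start, 5′ to 3′ on the gene's strand, from RefSeq on GRCh38.p14. The RefSeq starts of IGFBP3 and IGFBP6 lie inside the gene spans of GENCODE 29 given below. Capitals mark the GC box GGGCGG, the TATA box TATANA and the FOXO site GTAAACA on either strand. The positions are chr7:45921273-45921522 (minus strand) for IGFBP3, chr17:40443200-40443449 (plus) for IGFBP4, chr12:53097417-53097666 (plus) for IGFBP6 and chr13:109786584-109786833 (minus) for IRS2.
IGFBP3: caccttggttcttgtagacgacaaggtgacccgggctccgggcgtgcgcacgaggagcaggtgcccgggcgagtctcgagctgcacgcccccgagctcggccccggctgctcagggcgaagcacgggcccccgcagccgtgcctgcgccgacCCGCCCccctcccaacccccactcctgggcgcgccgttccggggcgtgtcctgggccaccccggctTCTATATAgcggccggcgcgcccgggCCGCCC
IGFBP4: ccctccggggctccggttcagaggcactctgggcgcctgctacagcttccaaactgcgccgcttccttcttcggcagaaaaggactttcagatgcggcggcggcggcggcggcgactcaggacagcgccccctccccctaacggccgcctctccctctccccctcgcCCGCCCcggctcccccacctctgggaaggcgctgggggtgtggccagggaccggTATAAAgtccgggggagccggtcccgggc
IGFBP6: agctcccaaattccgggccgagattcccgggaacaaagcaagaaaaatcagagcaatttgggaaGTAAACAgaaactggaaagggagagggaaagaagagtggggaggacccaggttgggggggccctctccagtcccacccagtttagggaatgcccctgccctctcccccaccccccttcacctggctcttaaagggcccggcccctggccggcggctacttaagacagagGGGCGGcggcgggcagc
IRS2: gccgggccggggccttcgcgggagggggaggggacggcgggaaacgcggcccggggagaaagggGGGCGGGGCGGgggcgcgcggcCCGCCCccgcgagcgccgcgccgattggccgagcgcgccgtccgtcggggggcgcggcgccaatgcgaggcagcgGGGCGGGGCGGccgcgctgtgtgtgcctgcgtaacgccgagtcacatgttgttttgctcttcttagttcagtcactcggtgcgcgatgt
The IGFBP3 window held 3 overlapping TATA box matches on both strands, at 30 and 32 bases before the start, and IGFBP4 held TATAAA at 29 bases before it. Windows of IGFBP6 and IRS2 had no match to TATANA. That motif occurs in 17.7% of 35116 promoter windows of the same length. IRS2 held 5 GC boxes, 2 pairs of them overlapping, against 2, 1 and 1 in IGFBP3, IGFBP4 and IGFBP6, and 42.6% of all windows hold at least 1. CpG dinucleotides numbered 42 in IRS2 and 32, 24 and 9 in IGFBP3, IGFBP4 and IGFBP6, with a median of 11 over all windows. High values were not particular to IRS2. IGF1R, IGF2R and IRS1, which did not pass the test, held 48, 33 and 39 CpG and 2, 6 and 4 GC boxes. IGFBP5 held 8 CpG and 0 GC boxes, and the 3 windows of IGFBP2 held 7, 22 and 4 CpG and 1, 1 and 0 GC boxes. IGFBP6 alone among the members with a window held GTAAACA, 186 bases before the start, on its plus strand, a motif found in 2.98% of windows. RefSeq windows were matched for 9 of the 10 genes, IGFBP7 being the exception. The matches describe letters in these windows and do not show that a factor binds there.

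RNF20 mRNA stood at 14.1, 12.2 and 11.1 CPM (read counts scaled to a common TMM library size) in the shRNF20 libraries and at 57.8, 58.5 and 58.0 CPM in the shControl libraries. Gene counts totalled 21988826 to 28265573 in shRNF20 and 23786533 to 29685306 in shControl. Replicates of shRNF20 lay closer together: the median coefficient of variation over tested genes was 6.01% in shRNF20 and 14.7% in shControl, and it was higher in shControl for 80.2% of all genes and 9 of the 9 members tested. Mitochondrially encoded RNA made up 5.74% ± 0.72 of gene counts in shRNF20 and 1.09% ± 0.25 in shControl (SD, n = 3 each). The marker counts that follow stand beside 29.8% of all tested genes that fell and 28.7% that rose. Of 5 genes known as high in this line, 3 fell (VIM, CD44, MSN) and AXL and CAV1 did not pass. CD44 was at 351 CPM in shRNF20 and 822 CPM in shControl. Of 5 known as low, ESR1, ERBB2 and EPCAM rose, CDH1 fell and PGR was too low to test. ESR1 averaged 1.44 CPM in shRNF20 and 0.0997 CPM in shControl, and CDH1 6.99 CPM in shRNF20 and 18.2 CPM in shControl. ERBB2 was not near the floor, at 139 CPM in shRNF20 and 102 CPM in shControl, and EPCAM was at 21.1 and 13.5 CPM. Of 13 fibroblast and endothelial markers, 7 were tested. Among these, 4 rose (COL1A1, COL3A1, LUM, PDGFRB) and PECAM1 declined past the threshold. All 13 together summed to 65.4 to 69.2 CPM in shRNF20 and 30.1 to 41.1 CPM in shControl. The 6 markers of this list that were too low to test (DCN, PDGFRA, FAP, CDH5, VWF, TEK) were at or under 0.474 CPM in every library. Leukocyte markers, 13 in all, summed to 6.04 to 7.99 CPM in shRNF20 and 5.07 to 7.78 CPM in shControl, with MS4A1 and FCGR3A at 0 throughout. Of the 5 leukocyte markers tested, CD14 rose (3.08 CPM in shRNF20, 1.41 CPM in shControl) and CSF1R fell (1.36 CPM in shRNF20, 2.34 CPM in shControl). The part of these differences in the results on the IGF axis was not tested, apart from a fit without mitochondrial genes. In bulk RNA, fewer cells of a type and less RNA per cell cannot be told apart.

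IGFBP3, IGFBP4 and IGFBP6 fell in shRNF20 cells by 3.05 to 5.16-fold, and IRS2 rose by 1.25-fold. The receptors IGF1R and IGF2R and the adaptor IRS1 did not pass the test, nor did IGFBP2 and IGFBP7, and IGFBP5 was too low to test. By edgeR's quasi-likelihood test with Benjamini-Hochberg adjustment at 0.05, 3 of the 9 tested members fell and 1 rose. Across all 15797 genes tested 29.8% fell and 28.7% rose, 58.4% in all, so being called is common in this comparison and the count itself is no result about these genes. The median log2 fold change was -0.34 over the 9 tested members and -0.01 over all genes tested. The highest control was shControl replicate 2 for 6 of the 9 tested members and for 35.9% of all genes tested. A fall of at least 2-fold with an adjusted p under 0.05 was found for 3 of the 9 and for 11.7% of all genes. The members were chosen with earlier results of these data known, and this contrast was not tested.

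**Figure D1:**
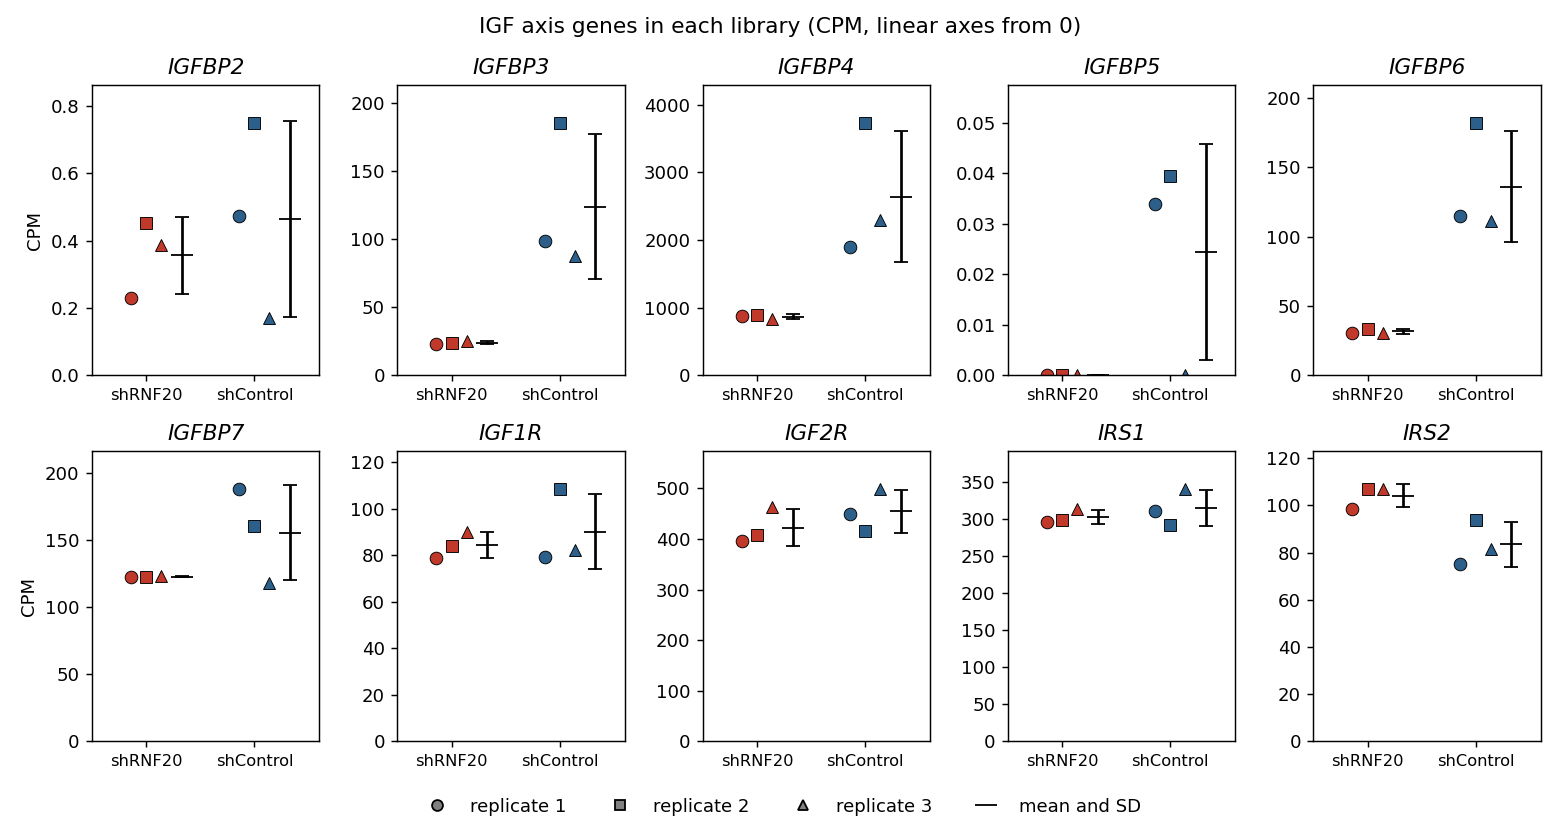
CPM of the 10 IGF axis genes in each library on linear axes from 0, with shRNF20 in red on the left and shControl in blue on the right of each panel. Symbols are replicates, and bars show the mean and SD over 3 libraries. IGFBP3, IGFBP4, IGFBP6 and IRS2 are the 4 of 9 tested members whose groups do not overlap, against 66.3% of all genes tested. For all 4, shControl replicate 2 is the highest control.

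IGFBP4 (ENSG00000141753.7, GRCh38 chromosome 17, 40443461 to 40457731, plus strand), an inhibitory binding protein cleaved by PAPPA, was the most abundant member. Its mRNA was at 880, 895 and 827 CPM in the shRNF20 libraries and at 1895, 3732 and 2296 CPM in the shControl libraries. Every shRNF20 library lay below every shControl library, and shControl replicate 2 stood far above the other controls. The means were 867 ± 35.8 CPM in shRNF20 and 2641 ± 966 CPM in shControl (SD, n = 3 each), a log2 fold change of -1.61 (SE 0.22, edgeR adjusted p = 3.71e-04). Without shControl replicate 2 the log2 fold change was -1.30 (edgeR adjusted p = 8.85e-06).

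IGFBP6 (ENSG00000167779.9, chromosome 12, 53097436 to 53102345, plus strand) prefers IGF2 over IGF1. It had 30.9, 33.6 and 30.7 CPM in shRNF20 and 115, 182 and 111 CPM in shControl. The groups were separate, and shControl replicate 2 was again the highest library. Its p was the smallest among the members, with a log2 fold change of -2.10 (SE 0.18, edgeR adjusted p = 4.46e-05). It was -1.86 without shControl replicate 2.

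IGFBP3 (ENSG00000146674.16, chromosome 7, 45912245 to 45921874, minus strand), the main IGF carrier of blood, had the largest fold change. Its libraries stood at 22.8, 23.9 and 25.3 CPM in shRNF20 and at 98.5, 185 and 87.9 CPM in shControl. No shRNF20 library came near the lowest control, and shControl replicate 2 was once more the highest. The means were 24.0 ± 1.26 CPM in shRNF20 and 124 ± 53.5 CPM in shControl (log2 fold change -2.37, SE 0.26, edgeR adjusted p = 1.33e-04). Without shControl replicate 2 the value was -1.98. The falls of IGFBP3, IGFBP4 and IGFBP6 passed in each of the 17 alternative fits, and without mitochondrial genes they were -2.38, -1.62 and -2.11.

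IGFBP1, which lies next to IGFBP3 at a distance of 18.6 kb on chromosome 7, is a liver-type binding protein controlled by insulin and belongs to the wider list of the pathway. It was at 19.5, 18.6 and 15.4 CPM in shRNF20 and at 72.4, 126 and 122 CPM in shControl. This neighbour fell as well (log2 fold change -2.58, SE 0.21, edgeR adjusted p = 3.33e-05), with the groups separate and shControl replicate 1 the lowest control. In contrast to IGFBP3, IGFBP4 and IGFBP6, its values in shControl replicates 2 and 3 were alike.

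IGFBP7 (ENSG00000163453.11, chromosome 4, 57030773 to 57110385, minus strand) binds IGFs with low affinity and is also a matrix protein. Its shRNF20 libraries were nearly equal at 123, 123 and 123 CPM, while the shControl libraries spread over 188, 160 and 118 CPM. The shRNF20 values lay between the lowest and the middle control. With a log2 fold change of -0.34 (SE 0.15, 95% interval -0.68 to -0.00453) the gene had an unadjusted p of 0.0476 and missed the threshold after adjustment over all genes (edgeR adjusted p = 0.0758). Without shControl replicate 3 the change was -0.51 and passed (edgeR adjusted p = 0.00200), and it passed with DESeq2 (-0.35, adjusted p = 0.0463) and with no filter on low counts (-0.38, edgeR adjusted p = 2.23e-04). It did not pass in the other 14 fits, and was -0.20 without shControl replicate 1 (edgeR adjusted p = 0.163).

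The counts of IGFBP7 cover less than the whole gene. In GENCODE 29, 18.9% of its exon bases are shared with POLR2B and IGFBP7-AS1 on the other strand, and counts made without strand leave out reads that fall on exons of more than 1 gene. The sum of the strand columns, which gives such reads to both genes, was 2.19 to 2.29 times as high for IGFBP7 in the 6 libraries. In shRNF20 replicate 1, for example, 3932 further reads appeared for IGFBP7, beside 2962 for IGFBP7-AS1 and 961 for POLR2B. IGFBP7-AS1 had 0 to 4 reads per library without strand, and the further reads of POLR2B and IGFBP7-AS1 together came to at least 99.5% of those of IGFBP7 in each library. On the strand sums IGFBP7 was at 272 ± 2.13 CPM in shRNF20 and 351 ± 81.2 CPM in shControl (SD, n = 3 each), with a log2 fold change of -0.34 and an edgeR adjusted p of 0.0770. The level of IGFBP7 thus depended on how shared reads were counted, while the log2 fold change was -0.34 either way. For IGFBP3, IGFBP4, IGFBP6, IGF1R and IGF2R the strand sums exceeded the counts by less than 0.01% in every library, and for IRS2 by 4.20% to 5.74%.

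IGFBP2, whose protein carries an integrin-binding motif, and IGFBP5, which binds matrix and hydroxyapatite, were close to absent. IGFBP2 (chromosome 2, 216632828 to 216664436) had 6, 10 and 11 reads in shRNF20 and 14, 19 and 4 reads in shControl. Its groups overlapped, and its log2 fold change of -0.40 had a 95% interval of -1.63 to 0.83 (edgeR adjusted p = 0.551), on at most 19 reads in a library. IGFBP5 (chromosome 2, 216672105 to 216695525), 7.67 kb away, had no read in the 3 shRNF20 libraries, and 1, 1 and 0 reads in shControl. Finding 0 reads allows up to 3 counts, or 0.105 to 0.136 CPM in the shRNF20 libraries, so no difference was detectable at this depth.

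IGF1R (ENSG00000140443.15, chromosome 15, 98648539 to 98964530, plus strand) was at 78.8, 84.1 and 90.0 CPM in shRNF20 and at 79.4, 109 and 82.3 CPM in shControl. All shRNF20 values lay within or just below the range of the controls. The log2 fold change was -0.10 with a 95% interval of -0.38 to 0.18 (edgeR adjusted p = 0.528). Its sign turned without shControl replicate 2 (0.04). IGF2R (ENSG00000197081.16, chromosome 6, 159969099 to 160113507, plus strand) was at 396, 408 and 463 CPM in shRNF20 and at 449, 415 and 499 CPM in shControl. The groups overlapped (log2 fold change -0.11, 95% interval -0.32 to 0.10, edgeR adjusted p = 0.350). Exons of IGF2R and of the antisense transcript AIRN within its span share no base in GENCODE 29.

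IRS1 (ENSG00000169047.6, chromosome 2, 226731317 to 226799759, minus strand) was at 296, 298 and 313 CPM in shRNF20 and at 311, 292 and 341 CPM in shControl. Its groups overlapped and its interval was the narrowest of the 9 tested members (log2 fold change -0.06, 95% interval -0.23 to 0.11, edgeR adjusted p = 0.536). IRS2 (ENSG00000185950.9, chromosome 13, 109752698 to 109786568, minus strand), the paralogue with a similar docking role, was at 98.5, 107 and 107 CPM in shRNF20 and at 75.0, 93.8 and 81.5 CPM in shControl. Of its exon bases 1.41% are shared with an antisense gene. Each shRNF20 library was above each control, although the lowest shRNF20 library was close to shControl replicate 2. Its rise of 0.32 on the log2 scale (SE 0.09, edgeR adjusted p = 0.0171) was the only one among the members. The call was lost without shRNF20 replicate 2 (0.29), shRNF20 replicate 3 (0.29) or shControl replicate 3 (0.30), in the test against 1.2-fold, and when counts of all shRNF20 libraries were pooled (0.34). The groups did not overlap for 4 of the 9 tested members, against 66.3% of all genes tested.

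**Figure D2:**
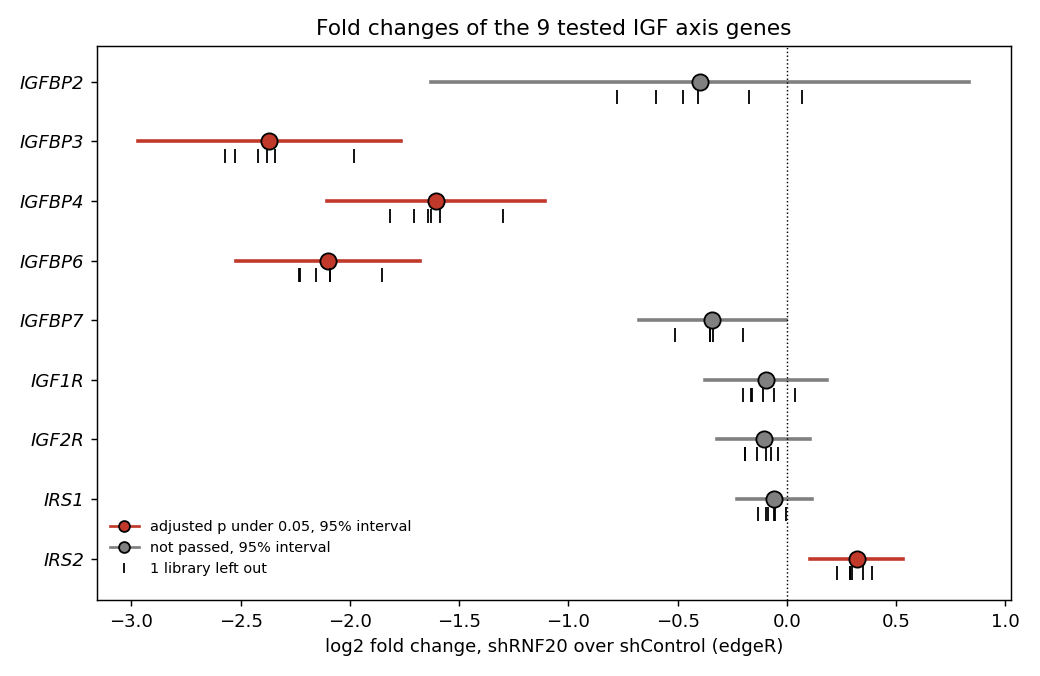
Log2 fold change of the 9 tested IGF axis genes, shRNF20 over shControl, with the 95% interval (lines) and the values with 1 library left out (ticks). The 4 genes in red had an adjusted p under 0.05. IGFBP3, IGFBP4 and IGFBP6 stay at -1.30 or below with any 1 library left out, while IRS2 lies between 0.23 and 0.39.

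Levels of different genes were compared as CPM per kb of merged exons, a length that counts every annotated exon and so understates genes with long alternative exons. IGFBP4 was at 394 ± 16.3 CPM per kb in shRNF20 and 1201 ± 439 CPM per kb in shControl, a level above that of 99.7% and 99.9% of the tested genes. In shRNF20 it was followed by IGFBP7 (63.6), IRS1 (30.4), IGF2R (23.7), IGFBP6 (23.6), IRS2 (12.8), IGF1R (6.04), IGFBP3 (5.25) and IGFBP2 (0.0749). IGF2R and IGFBP6 overlapped in that group, and the other neighbours in the order did not. The order in shControl was IGFBP6 (101), IGFBP7 (80.5), IRS1 (31.6), IGFBP3 (27.1), IGF2R (25.5), IRS2 (10.3), IGF1R (6.46) and IGFBP2 (0.0975) after IGFBP4. There IGFBP6 overlapped with IGFBP7, and IGFBP3 with both IRS1 and IGF2R, while IRS1 and IGF2R were separate. These places use counts without strand. With IGFBP7 taken from the strand sums, it exceeded IGFBP6 in each shControl library. Its shares of the IGFBP2 to IGFBP7 sum were then 18.4%, 9.24% and 10.6%, against 7.18%, 6.56% and 6.44% for IGFBP6. The place of IGFBP7 after IGFBP6 in shControl therefore depended on how shared reads were counted. IGFBP3 thus stood below IGF1R in each shRNF20 library and above it in each shControl library.

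Summed over IGFBP2 to IGFBP7, the level was 492, 501 and 468 CPM per kb in shRNF20 and 1066, 1955 and 1207 CPM per kb in shControl. Without IGFBP4 the sum was still lower, at 91.6, 93.9 and 92.1 against 204, 259 and 163 CPM per kb in shControl. IGFBP4 made up 81.0% ± 0.58 of the sum in shRNF20 and 84.7% ± 3.36 in shControl, so the make-up stayed dominated by it. IGFBP7 held 13.1% ± 0.48 in shRNF20 and 6.15% ± 2.63 in shControl. With IGFBP7 taken from the strand sums, an alternative chosen after seeing the data, its share was 24.99% ± 0.69 in shRNF20 and 12.8% ± 4.96 in shControl, larger by both counts in shRNF20. These shares and sums were not tested. The ratio of IGF2R to IGF1R per kb was 3.91 ± 0.12 in shRNF20 and 4.05 ± 0.93 in shControl (SD, n = 3 each), and that of IRS1 to IRS2 was 2.38 ± 0.09 in shRNF20 and 3.12 ± 0.50 in shControl.

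**Figure D3:**
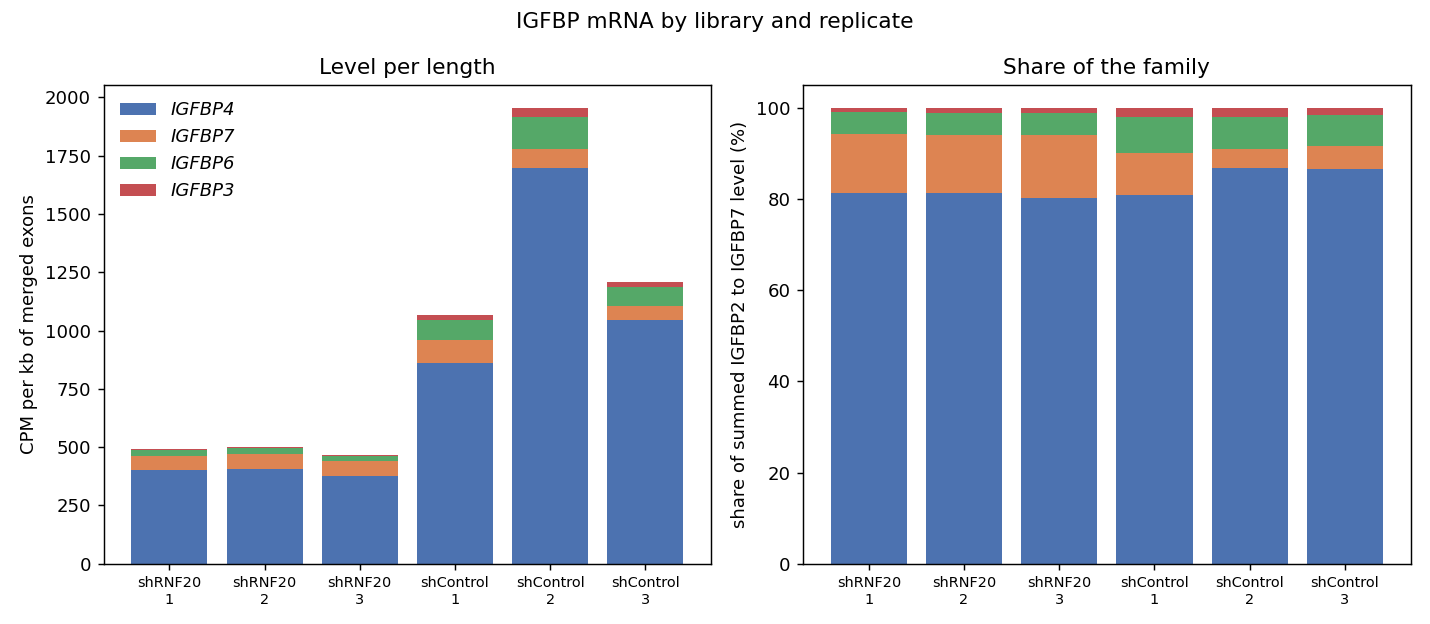
IGFBP mRNA in each library, with shRNF20 on the left and shControl on the right, as CPM per kb of merged exons (left panel) and as the share of the sum over IGFBP2 to IGFBP7 in percent (right panel). IGFBP2 and IGFBP5 are too low to show. The sum is 468 to 501 CPM per kb in shRNF20 and 1066 to 1955 CPM per kb in shControl, with IGFBP4 as the largest share in all 6.

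The genes most like IGFBP6 across the libraries, by Pearson's r of log2-CPM over the 6 libraries among 9930 genes, were DESI2, MAPK13 and RXRA (r = 0.999 each). The 6 libraries form 2 groups and the r is a description only. The log2 fold changes of these genes were -0.57, -1.33 and -0.46, all smaller in size than the -2.10 of IGFBP6.

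Beyond the members, 84 genes of the pathway were followed in 7 lists, of which 71 were tested. Together 27 fell and 21 rose (median log2 fold change -0.10), against 29.8% falling and 28.7% rising over all genes. The counts of each list below stand beside these same shares, and the direction of a list as a whole was not tested. No read of IGF1 or INS was found, which allows up to 0.105 to 0.136 CPM in the shRNF20 libraries and 0.102 to 0.128 CPM in shControl. IGF2 averaged 3.70 ± 0.30 CPM in shRNF20 and 2.47 ± 1.38 CPM in shControl (log2 fold change 0.59, edgeR adjusted p = 0.189). It did not pass with all 6 libraries. Without shControl replicate 2 it rose past the threshold, and 2 genes of its list rose instead of 1. INSR, the insulin receptor, which also pairs with IGF1R in hybrids, fell to 28.4 ± 0.90 CPM in shRNF20, against 55.4 ± 3.54 CPM in shControl (log2 fold change -0.96, SE 0.08, edgeR adjusted p = 4.25e-05). Per kb, the ratio of IGF1R to INSR was 2.16, 2.20 and 2.31 in shRNF20 and 1.08, 1.38 and 1.19 in shControl. IGFBPL1, a secreted relative of the family, rose (1.13, SE 0.14, edgeR adjusted p = 2.36e-04), with 229, 226 and 226 CPM in shRNF20 and 80.5, 106 and 125 CPM in shControl.

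Of the proteases that cleave binding proteins and the stanniocalcins that inhibit PAPPA, 4 of 7 tested fell and 0 rose (median -0.99). STC1, a secreted inhibitor of PAPPA, fell to 62.8 ± 0.96 CPM in shRNF20, against 301 ± 42.3 CPM in shControl (log2 fold change -2.26, SE 0.11, edgeR adjusted p = 5.03e-06). Also lower past the threshold were the metalloprotease ADAM12 (-2.30, at 0.856 CPM in shRNF20 and 4.23 CPM in shControl) and the lysosomal protease CTSD (-0.55). PAPPA, which cleaves IGFBP4, had a log2 fold change of -0.99 (SE 0.37, edgeR adjusted p = 0.0451), but its groups overlapped and it passed in only 6 of the 17 alternative fits, with values of -1.30 to -0.43. Its call was lost without any 1 shRNF20 library and without shControl replicate 2 or 3, and the value was lowest in size without shControl replicate 3. HTRA1, a serine protease, was just outside the threshold (-0.32, edgeR adjusted p = 0.0501).

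Proteins that carry an IGFBP domain outside the family went both ways, with 3 of 7 falling and 2 rising (median -1.41). The matricellular genes CCN1 (1.29, SE 0.09, edgeR adjusted p = 1.67e-05) and CCN2 (0.92) rose, the first to 4909 ± 36.3 CPM in shRNF20, against 2005 ± 210 CPM in shControl. KAZALD1 (-2.77, SE 0.37), CCN3 (-1.70) and CCN5 (-2.36) fell, each with widely spread controls (16.9 ± 9.53, 23.9 ± 14.8 and 4.05 ± 3.75 CPM, SD, n = 3). CCN3 passed in 15 of the 17 alternative fits. The groups of CCN5, which averaged 0.793 CPM in shRNF20, overlapped. The call for CCN5 was lost without shRNF20 replicate 1 or 3, with limma-voom and with the shRNF20 counts pooled, and its value was -1.35 without shControl replicate 2. Of the IGF mRNA-binding proteins, IGF2BP2, which binds and steadies target transcripts, fell (-0.75, SE 0.11, edgeR adjusted p = 6.29e-04) and IGF2BP3 did not pass (-0.11).

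Among the adaptors and inhibitors that act at the receptor, 4 of 14 fell and 5 rose (median 0.11). The genes that fell were SOS1 (-0.95, SE 0.07, edgeR adjusted p = 2.62e-05), GRB10 (-0.57), SHC1 (-0.45) and GRB2 (-0.27), where SOS1, SHC1 and GRB2 link the receptor to RAS and GRB10 inhibits it. SH2B1 (0.90, SE 0.08, edgeR adjusted p = 5.67e-05), an adaptor that favours insulin signalling, rose. So did the phosphatase PTPN1 (0.88), which removes phosphate from the receptor, the inhibitor SOCS3 (0.92), SH2B2 (0.36) and the phosphatase PTPN11 (0.25). With any 1 of the shRNF20 libraries left out 3 of the list rose, SH2B2 and PTPN11 being lost each time, and PTPN11 was also lost without shControl replicate 1. Each of these passed in 10 of the 17 alternative fits.

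Of 26 tested genes of PI3K, AKT, mTOR and FOXO, 12 fell and 6 rose (median -0.12). The catalytic PI3K subunits PIK3CD (-1.79, SE 0.12) and PIK3CA (-1.07, SE 0.09) and the kinase AKT1 (-1.07, SE 0.07) fell, with edgeR adjusted p-values of 1.57e-05, 3.09e-05 and 1.74e-05. Genes that rose, named after their values were seen, included GSK3A (0.60), PDPK1 (0.66), TSC1 (0.54), RHEB (0.56) and PHLPP2 (0.71). Both activators of the pathway (PDPK1, RHEB) and inhibitors (TSC1, PHLPP2) are among them. FOXO1, also named after its value was seen and a transcription factor that AKT keeps out of the nucleus, was at 17.3 CPM in shRNF20 and 17.2 CPM in shControl (log2 fold change 0.01, edgeR adjusted p = 0.979). FOXO3 and FOXO4, the other FOXO genes of the list, likewise named after their values were seen, fell past the threshold. FOXO3 was at 50.3 CPM in shRNF20 and 84.0 CPM in shControl (-0.74, edgeR adjusted p = 2.24e-04). FOXO4 was at 2.40 CPM in shRNF20 and 5.40 CPM in shControl (-1.16, edgeR adjusted p = 0.00506).

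Genes that mark and sort lysosomal proteins with mannose 6-phosphate, the route IGF2R serves, included 7 of 11 that rose and 1 that fell, with a median of 0.39. NAGPA, which uncovers the tag, rose to 31.7 ± 2.15 CPM in shRNF20, against 15.5 ± 1.42 CPM in shControl (log2 fold change 1.04, SE 0.11, edgeR adjusted p = 9.74e-05). SORT1 (0.56), a sorting receptor, and GNPTG (0.81), a subunit of the enzyme that adds the tag, rose as well. M6PR, named after its value was seen, the cation-dependent receptor that shares this route with IGF2R, rose by 0.34 (SE 0.07, edgeR adjusted p = 0.00427). VPS35 of the retromer fell (-0.19), a call that was lost without any 1 shRNF20 library and held in 10 of the 17 alternative fits.

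**Figure D4:**
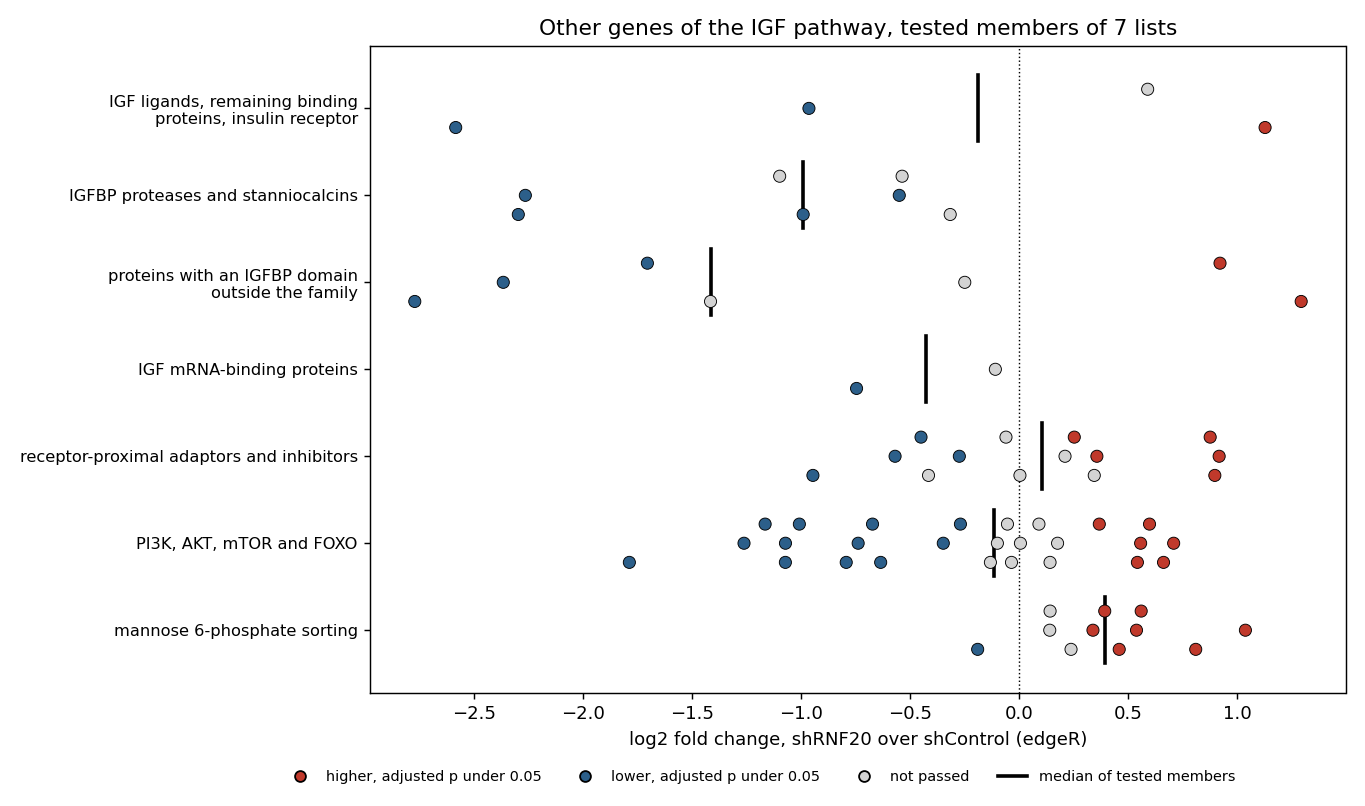
Log2 fold change, shRNF20 over shControl, of the tested genes of 7 IGF pathway lists, with genes that rose in red, genes that fell in blue and the rest in grey. Black lines are medians of the tested members. The mannose 6-phosphate list lies mostly above 0 (median 0.39) and the protease list below it (median -0.99).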

How the data were processed

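Bulk RNA-seq of MDA-MB-231 cells was analysed in 3 shRNF20 and 3 shControl libraries. The authors deposited 1 table of raw read counts per gene and library, made with STAR 2.7.11a (per the submitters' processing notes, which also name FastQC 0.12.1 and hg38) and holding counts without strand and counts for each strand. Both strand columns held about equal totals (50.1% to 50.2% in the first), so the counts without strand were used. The annotation release is not given in the sources used here, and GENCODE 29 (GRCh38) supplied gene spans and exon lengths, with 58264 of the 62703 identifiers present in it. Reads that name no gene (20.9% to 24.1%) were left out of library sizes. They made up 24.1% ± 0.05 in shRNF20 and 21.6% ± 0.96 in shControl (SD, n = 3 each). Among them, reads outside any annotated exon were 5.33% ± 0.24 in shRNF20 and 2.49% ± 0.10 in shControl. The part of this difference in the results was not tested.

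Genes were filtered with filterByExpr (minimum count 10), leaving 15797, scaled with TMM and tested with edgeR 4.0.16 (R 4.3.3, quasi-likelihood test, all 6 libraries, no covariate, Benjamini-Hochberg adjustment over all genes tested, threshold 0.05). CPM used TMM library sizes, and values are means ± SD over 3 libraries. Intervals of 0 counts cover counting error only. The procedure was tested on simulated data with the same dispersion in both groups. It was not tested under the wider spread that the shControl libraries had here. Alternatives were other scalings and filters, DESeq2 1.42.0, limma-voom (limma 3.58.1), a replicate block, strand sums, a 1.2-fold test, libraries left out, shRNF20 libraries summed and mitochondrial genes removed.

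The members and lists were chosen with earlier results of these data known. Genes named from a list were the 3 with the smallest p among those past the threshold and, where 5 or fewer passed in a direction, all of them. Genes given as not passing were named after their values were seen.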

Additional observations from a re-analysis of the deposited data

How the results depend on the processing

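IGFBP3, IGFBP4 and IGFBP6 fell past the threshold in each of the 17 alternative fits, with log2 fold changes of -2.57 to -1.98, -1.82 to -1.30 and -2.23 to -1.86. The rise of IRS2 did not pass in the 1.2-fold test or with the shRNF20 libraries summed to 1 sample, so 0 members rose in both. With 1 library left out, 0 to 1 members rose and 3 to 4 fell. Log2 fold changes that turned sign were those of IGFBP2 (-0.78 to 0.068 with 1 library left out) and IGF1R (-0.20 to 0.037), both without shControl replicate 2. With the shRNF20 libraries summed, a fit in which the spread comes from shControl alone, 11 genes of the pathway lists rose and 15 fell, as did 1753 and 1619 of all genes. With 1 library left out the pathway lists gave 19 to 24 higher and 22 to 29 lower, and all genes 3617 to 4755 higher and 3906 to 5022 lower. Same-numbered libraries hardly deviated together (r = -0.02, 0.03 and 0.03). While shRNF20 replicate 1 correlated best with shControl replicate 3, shRNF20 replicates 2 and 3 correlated best with their own numbers. All r lay between -0.046 and 0.035, too near 0 to show pairs, and the numbers were not taken as pairs. With a replicate block 1 member rose and 3 fell, and in the pathway lists 20 rose and 27 fell. Depth limits IGFBP2 and IGFBP5, with at most 19 reads in a library.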
